A study of Mus musculus with 3 samples.

Results

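PIWI-interacting RNAs (piRNAs) are small RNAs of germ cells that guide PIWI proteins to other transcripts, and nearly all of them begin with uracil. In the mouse testis the PIWI protein MILI carries the shorter piRNAs and MIWI the longer ones, and most piRNAs of the adult testis come from long noncoding transcripts and the 3′ UTRs of some coding genes. Where cleavage by one PIWI protein makes the start of the next piRNA, the pair lies on opposite strands with 10 overlapping bases, and a partner that begins with uracil faces an adenine at base 10. The sequences described here are the testis sequences of 25 to 27 nt, the length range of MILI-bound piRNAs, that begin with T (the DNA letter for uracil) and were read 10 times or more. No protein was pulled down in the study, so the length stands for MILI by convention and not by measurement.

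The rule chose 26458 members out of 2592365 distinct sequences of the testis table. A first 26588 sequences met the length, first base and COUNT (the number of reads of a sequence), and 130 of them matched a known RNA and were left out, allowing 1 substitution or a deletion of up to 3 bases. The 23 tRNA matches among those held 208599 testis reads, 208143 of them in 10 forms of tRNA-Glu-CTC, while 87 microRNA matches held 14906 reads and 20 rRNA matches held 617. The study sequenced small RNA from CD1 mice in 3 libraries, 1 each of mature sperm released from the cauda epididymis, whole adult testis and whole adult uterus. Sperm had been treated with a detergent buffer that lyses somatic cells; no other treatment and no age beyond adult was given, and the labels do not say how many animals went into a library. With 1 library per group nothing was tested between tissues. The 95% intervals below cover counting error only. Those built on reads count PCR copies of a molecule as separate reads and are too narrow to that extent. Fewer germ cells in a tissue cannot be told apart from less RNA per cell.

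Depth was 23783785 reads in testis, 15690722 in sperm and 15876066 in uterus. A sequence with no read in a library may still be present at up to 3 reads, or 0.126, 0.191 and 0.189 reads per 1000000 (RPM). Reads of 25 to 31 nt with a first T made up 82.6% of testis, 24.8% of sperm and 1.65% of uterus reads. Of the microRNAs fixed as tissue markers, the germ cell markers miR-34b-5p and miR-449a-5p summed to 100.03 RPM in testis, 5.61 in sperm and 9.01 in uterus, and the gonad marker miR-202-5p was at 106 RPM in testis. The stromal marker miR-199a-3p was at 29.01 RPM in testis, 24.3 in sperm and 29079 in uterus, and the epithelial markers miR-200c-3p and miR-141-3p summed to 0.463 RPM in testis, 2341 in sperm and 92.4 in uterus. The leukocyte marker miR-142a-3p was at 5.03 RPM in sperm and 0.945 in uterus with 0 reads in testis, and the erythroid markers miR-144-3p and miR-451a summed to 1.91 RPM in sperm, 1.98 in testis and 78.4 in uterus. The markers miR-34c-5p, miR-1a-3p, miR-143-3p and miR-150-5p were not analysed here. The sperm library thus held epithelial and leukocyte microRNAs that testis nearly lacked, and their part in the sperm levels below was not tested.

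The 10 members with the highest testis COUNT are printed first, since they hold the most reads and show which forms the class is made of. All sequences are written 5′ to 3′ in lower case, with base 1 and base 10 in capitals.

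Member 1: TgagtagttCtgctgtaggaaaaggct
Member 2: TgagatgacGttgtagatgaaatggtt
Member 3: TtgggaattTgtagcggttaaaccatt
Member 4: TagtgatcgGaagtcttgtaatcaggc
Member 5: TgagtagttCtgctgtaggaaaaggc
Member 6: TccctggtcTagtggttaggattcggt
Member 7: TagtactagAactcaggagctggatgg
Member 8: TgggaatttGtagcggttaaaccattc
Member 9: TgaagcaaaCgtagtggaactggccc
Member 10: TagattttcTagtaggcagctggcatc

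Member 1 had a COUNT of 17425 in testis (733 RPM), 187 in sperm (11.9 RPM) and 0 in uterus. Member 5 is the same sequence without its last base and had a COUNT of 4148 in testis, 106 in sperm and 0 in uterus. Members 3 and 8 start 1 base apart on one sequence and had testis COUNTs of 7830 and 3594, with 9 and 0 reads in sperm. The leading members thus include the same sequence with another end or another start.

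Member 2 had a COUNT of 8233 in testis and 10 in sperm, and member 4 had 4734 in testis and 124 in sperm. Member 7 was the only one of the 10 with an A at base 10, and with 3725 reads in testis and 274 in sperm it had the highest sperm COUNT of the 10. Member 9 had 3542 reads in testis and 16 in sperm, and member 10 had 3541 in testis and 0 in sperm. None of the 10 was listed in uterus, and none matched an annotated transcript without mismatch, so no position is given for them. Member 6, with 3941 reads in testis and 17 in sperm, passed the filter but shares a run of at least 14 bases with a tRNA, as did 83 members in all, which held 0.611% of the members' testis reads and 2.64% of their sperm reads.

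The members held 1532554 testis reads, 6.44% of the library. There were 4724 members of 25 nt, 9505 of 26 nt and 12229 of 27 nt, with 211692, 543428 and 777434 reads. Numbers thus grew toward the upper length limit, and whole-library reads went on growing past it, from 1382310 at 27 nt to 7464147 at 30 nt. The median COUNT was 21. A small number of members held much of the signal: 2883 members with a COUNT of 100 or more held 59.7% of the reads, and 138 with 1000 or more held 16.4%. At the threshold itself, 2243 sequences had a COUNT of 10 and 2529 had a COUNT of 9 and stayed outside.

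Base 10 was A in 30.9% of members (exact Clopper-Pearson 95% interval 30.4% to 31.5%). The other positions from 2 to 25 ranged from 25.5% to 45.0% with a median of 29.99%, and 7 of those 23 positions had more A than base 10. The highest share of A was at base 5, with 45.0% (44.4% to 45.6%). The share at base 10 was 27.9% in members of 25 nt, 29.9% at 26 nt and 32.9% at 27 nt, in intervals that did not overlap between 25 and 27 nt. Base 10 therefore did not stand out from its neighbours, at 29.3% for base 9 and 31.1% for base 11.

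The comparison set was the 121754 testis sequences of 28 to 31 nt chosen by the same first base, COUNT and filter. It had A at base 10 in 32.6% (32.3% to 32.8%), above the members' interval, and A at base 5 in 43.5%. Base 2 was G in 43.7% of members (43.1% to 44.3%) and in 35.03% of the longer sequences (34.8% to 35.3%). Toward the 3′ end the members held more G as well. Base 24 was G in 34.9% of members (34.4% to 35.5%) and in 27.5% of the longer set (27.3% to 27.8%). That base lies nearer the 3′ end in members than in the longer set. Among sequences with a sense match, the base 2 before the last was G in 33.1% of members (31.6% to 34.8%). In the longer set it was 28.7% (27.9% to 29.5%). For the base just before the last the intervals overlapped, at 34.0% in members and 32.6% in the longer set. Over all sequences, matched or not, the last base was T in 30.7% of members and in 44.0% of the longer set. Among those with a sense match the gap was smaller, with T in 25.2% of members and 29.8% of the longer set. G was the last base there in 23.7% and 16.3%. Members that share a start are not independent, and with 1 member per start A at base 10 was 30.96%.

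**Figure D1:**
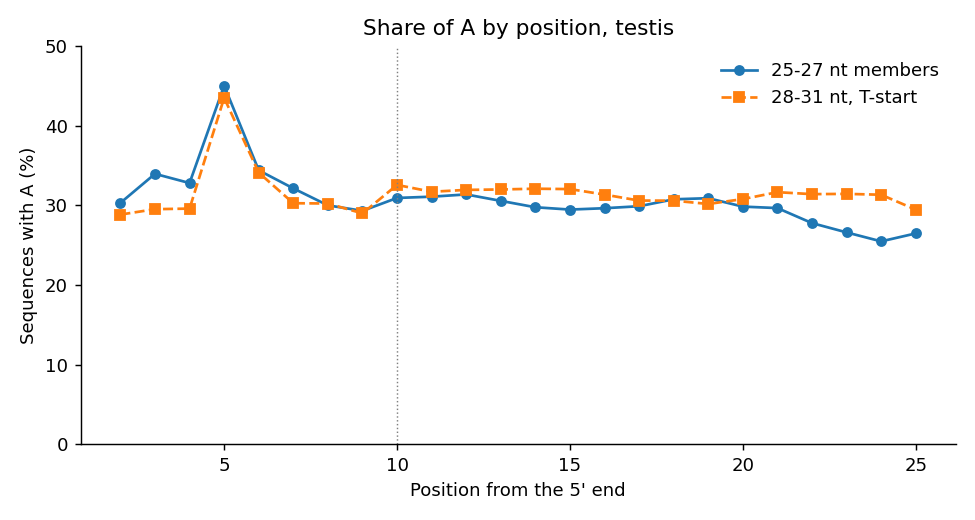
Share of sequences with A (y axis, percent) at positions 2 to 25 from the 5′ end (x axis) for the 26458 members (circles) and the 121754 T-start sequences of 28 to 31 nt (squares), with the dotted line at base 10. Both sets peak at base 5, and base 10 of the members (30.9%) lies among its neighbours.

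Matches to genes were sought in the annotated transcripts of GENCODE M21, on build GRCm38, over the whole length and without mismatch. In sense 3400 members matched (12.9%, interval 12.4% to 13.3%), 601 matched only in antisense (2.27%, 2.10% to 2.46%) and 22457 matched no transcript (84.9%). The longer set matched in sense in 10.7% (10.6% to 10.9%) and in antisense only in 2.34%. A match over the whole length asks more bases of a longer sequence, so the sets were not held to an equal measure. Introns and intergenic sequence were not searched, since no genome was used here. Of the members with a sense match, 3175 matched a single gene, 281 genes in all.

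Long intergenic noncoding RNAs (lincRNAs) took most of them: 1858 members from 38 genes (58.5%) held 68.7% of the reads. Another 836 members (26.3%) came from 197 protein-coding genes and held 16.8% of the reads. Within coding genes 574 members lay in the 3′ UTR (68.7%), 126 in coding sequence (15.1%) and 34 in the 5′ UTR, and 96 fell in regions that differ between transcripts. The 10 genes with most member reads held 62.5% of the reads that matched a single gene but 6.56% of all member reads.

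The leading member of the 6 genes with the most member reads is printed to show where the class can be placed; all 6 match a single place in the transcripts, and capitals again mark bases 1 and 10.

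Gm49794: TagaaggacTggtgaagtagaaggatc
Gm21269: TatgagttgGatgtagaaacccaggc
1700001L05Rik: TgaattagaTtagaagaacagttggct
Gm10505: TgagtctctTgaagaaatgctggcat
1700029M20Rik: TgactcaagAattatcggccaacatgt
Gm5878: TaggacagtAtgttgaactcagcagaa

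Gm49794, a lincRNA at chr17:27354111-27367492 on the plus strand, had the most, with 379 members and 30937 testis reads, of which 158 members were listed in sperm with 1694 reads and none in uterus. Its printed member lies in an exon at chr17:27364459-27364485 and had a COUNT of 2022 in testis and 81 in sperm. Gm10505, a noncoding transcript upstream on the same strand at chr17:27325035-27344833, had 162 members with 9591 testis reads and 476 sperm reads. Its printed member, at chr17:27325979-27326004, had a COUNT of 951 in testis and 0 in sperm.

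Gm21269, a lincRNA at chr7:73816546-73838898 on the plus strand, had 314 members with 23821 testis and 1573 sperm reads, and its leading member at chr7:73822836-73822861 had a COUNT of 1142 in testis and 25 in sperm. Its neighbour Gm10619 on the minus strand, at chr7:73781429-73816503, had 86 members with 3375 testis and 136 sperm reads. Both strands of this divergent pair thus gave members. 1700001L05Rik at chr15:83353847-83367282 on the minus strand had 158 members with 10230 testis reads, and its leading member at chr15:83354667-83354693 had a COUNT of 1512 in testis and 1 in sperm.

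1700029M20Rik at chr4:135626655-135630198 on the plus strand had 96 members with 7201 testis and 181 sperm reads, and its leading member at chr4:135629837-135629863 had a COUNT of 995 in testis and 3 in sperm. Gm5878 at chr6:85111416-85126125 on the minus strand had 97 members with 4769 testis and 615 sperm reads, and its leading member at chr6:85114931-85114957 had a COUNT of 698 in testis and 15 in sperm. The lincRNAs Gm21388 and 4933440M02Rik followed with 73 and 72 members and 3830 and 3445 testis reads. None of these genes had a member read in uterus.

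Among coding genes, 1700006A11Rik led with 65 members and 3387 testis reads, and its top member, with a COUNT of 635 in testis and 0 in sperm, crossed an exon junction in at least 1 transcript. Asb1, which encodes an ankyrin repeat and SOCS box protein, had 48 members with 2581 testis and 275 sperm reads. Cbl, an E3 ubiquitin ligase, had 38 members with 2393 testis and 38 sperm reads. Kctd7 had 18 members with 2325 testis reads, of which 1197 were of 1 sequence, and Tbl2 had 41 members with 2324. The top members of Asb1, Cbl, Kctd7 and Tbl2 lay in the 3′ UTR.

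Genes differed in how much of their output was short. The short share is the members' reads as a percentage of all T-start reads of 25 to 31 nt of the gene, counting sequences with a COUNT of 10 or more. Over all 26 genes with at least 10000 such reads it ran from 3.34% to 43.2% with a median of 8.43%. Gm10505 was highest with 43.2% (42.5% to 43.8%), followed by its neighbour Gm49794 with 25.2% (24.9% to 25.4%), 1700001L05Rik with 20.7% and 1700029M20Rik with 20.6%. The lowest were 1700009C05Rik with 3.34% and Wdfy3 with 3.64%.

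Gm21269 had a short share of 12.3% (12.1% to 12.4%) and its divergent neighbour Gm10619 8.88% (8.59% to 9.17%). The coding genes 1700006A11Rik, Cbl and Asb1 were at 6.88%, 7.23% and 5.56%. The short share spanned a wide range between genes, beyond counting error. Base 10 was A in 14.6% of the 158 members of 1700001L05Rik, 32.2% of the 314 of Gm21269 and 46.2% of the 65 of 1700006A11Rik.

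**Figure D2:**
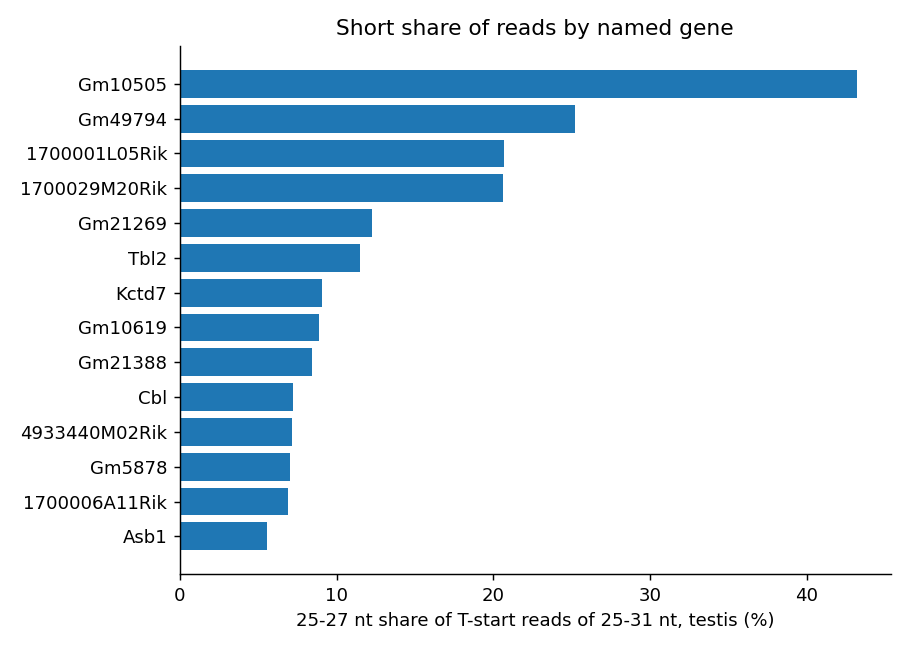
Short share (x axis, percent of T-start testis reads of 25 to 31 nt that were 25 to 27 nt long) for each named gene (y axis), 1 testis library. Gm10505 and Gm49794 have the highest bars, at 43.2% and 25.2%.

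Opposite-strand partners were sought for the 4001 members that matched a transcript in either orientation, among all testis sequences of 25 to 31 nt whose first 25 bases matched a transcript. A partner whose start overlapped the member's start by exactly 10 bases existed for 205 members (5.12%, interval 4.46% to 5.85%). At the other overlaps from 1 to 24 bases the share ranged from 0.575% to 2.12% with a median of 1.15%. Of the 205, 79 matched several places, up to 982, where a partner at any of them counts. Among the 3691 members matched at 1 place, 126 had a partner at 10 bases (3.41%, interval 2.85% to 4.05%) against 0.244% to 1.03% at the other overlaps. The overlap of 10 bases thus had the highest share among the overlaps of 1 to 24 bases, as it did in the longer set, where it reached 4.55% against at most 1.65% elsewhere.

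The partners had few reads. The partner's start had a median of 2 reads, a single read for 98 of the 205 members and 10 or more for 36, and it had more reads than the member for 25. The most abundant partner began with T for 95 members (46.3%), with A for 43, with G for 35 and with C for 32. Of all testis reads, 86.9% to 92.8% began with T at each length from 25 to 31 nt. That is a share of reads and not of partners, but T was less common among the partners. Base 10 of a member pairs with base 1 of its partner, so the same 95 members (46.3%, interval 39.4% to 53.4%) had A at base 10, and these are one measurement and not a pair of them. Among the 126 members matched at 1 place, the partner began with T for 52 (41.3%). Members of different length with the same start can share a partner, so they are not independent. By gene, Gm21269 held 20 of the 205 (6.37% of its members), Gm10505 held 17 (10.5%) and Gm49794 held 16 (4.22%).

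The paired member with the highest COUNT, picked after its values were seen, is printed with its partner; here capitals mark the 10 bases that pair with each other across the strands.

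Member of Gm49794: TAACAGTCCActctggcagaagctga
Partner on the other strand: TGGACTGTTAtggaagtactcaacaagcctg

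The member, at chr17:27355157-27355182, had a COUNT of 1060 in testis and 7 in sperm, and the partner of 31 nt had a COUNT of 3 in testis and 0 in sperm. The pair had T at both starts and A at base 10 of both. The rule asks for 10 reads or more of a member and for none of a partner, so that the difference in reads between them is no finding.

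**Figure D3:**
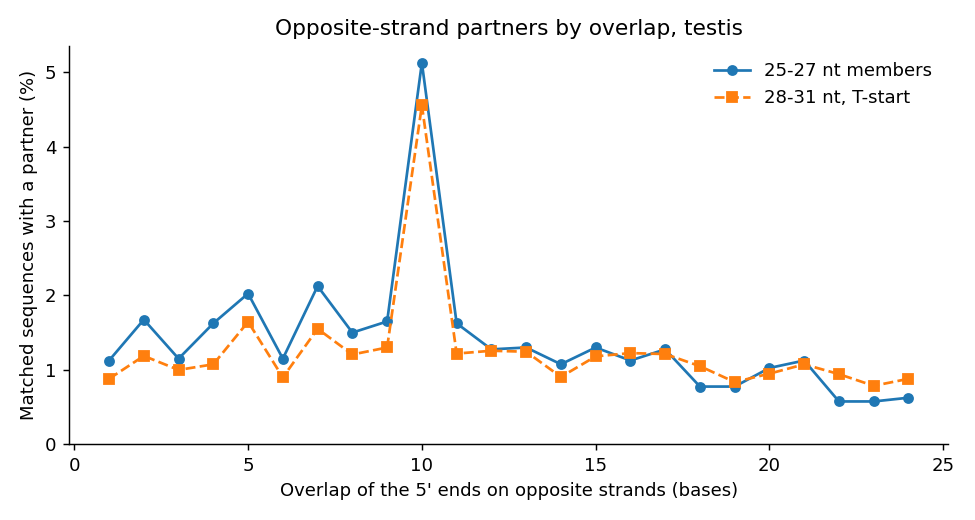
Share of matched sequences with an opposite-strand partner (y axis, percent) by the number of overlapping bases between their 5′ ends (x axis), for 4001 members (circles) and the longer T-start set (squares). Both lines peak at 10 bases, at 5.12% and 4.55%.

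The base that follows a member in its transcript was also read. Whether the 3′ ends seen here are the ends at which a precursor was cut was not tested. The next base was T in 22.8% (21.4% to 24.3%) of 3366 members with a single possible next base. T made up 22.2% to 24.9% at bases 2 to 10 after the end. In the longer set the next base was T in 26.1%. Another testis sequence started directly after the 3′ end about as often as further on: it did so for 21.2% of matched members, within the range of 20.7% to 24.1% at the bases after it. Neither measure set the next base apart, which says nothing of where a precursor was cut.

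Longer forms are testis sequences of 28 to 32 nt that begin with the whole member. They existed for 25823 members (97.6%, 97.4% to 97.8%) and 635 had none, the most abundant of which had a COUNT of 193. The longer forms had more reads than the member itself for 20832 members (78.7%) and at least 10 times as many for 9524. The median ratio was 5.29, with quartiles of 1.36 and 17.2. Most members thus had fewer reads than the longer forms of the same start.

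The leading members did not all follow that pattern, although member 1 did, with 17425 reads of its own against 21118 in longer forms. Of those longer-form reads, 17330 were of 28 nt. Member 9 had 3542 reads against 1388 in longer forms, member 10 had 3541 against 1070, and member 8 had 3594 against 1081. Those last 3 outnumbered all their longer forms.

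Member 2 had 8233 reads against 76871 in longer forms, with 33183 of 29 nt and 26360 of 30 nt. The 3 leading members of 25 nt likewise had most of their reads in longer forms. They are printed with the most abundant longer form of each, with bases 1 and 10 in capitals, to show the shared start.

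Member of 25 nt, a: TgctagagaAcaggacacagaagga
Its main longer form: TgctagagaAcaggacacagaaggagctc
Member of 25 nt, b: TcaataaatAtttgtagaatgcatg
Its main longer form: TcaataaatAtttgtagaatgcatgaatga
Member of 25 nt, c: TctgagccgAtgttgaaccagctga
Its main longer form: TctgagccgAtgttgaaccagctgaggata

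Member a had a COUNT of 1506 in testis and 250 in sperm, and its longer form of 29 nt had 3595 in testis. Member b had 1291 in testis and 4 in sperm, beside 28280 reads of its form of 30 nt. Member c had 1281 in testis and 1 in sperm, beside 12011 reads of its form of 30 nt. All 3 had A at base 10.

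Grouped by their first 25 bases, the members came from 14991 starts. Leaving out 65 starts of members that share 14 bases with a tRNA, 14926 starts held 13102427 testis reads of 25 to 32 nt, 55.1% of the library. Of these starts, 4793 (32.1%, interval 31.4% to 32.9%) had 25, 26 or 27 nt as their most abundant length, 3026 had 29 nt and 4172 had 30 nt. In reads, 30 nt led with 32.4% of the testis reads of the starts, and the lengths of 25 to 27 nt held 12.4%.

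Starts led by a short form were set beside the rest in measures that the lengths did not use. Base 10 was A in 26.5% of the short-led starts (25.3% to 27.8%) and in 33.2% of the 10133 others (32.3% to 34.1%). The difference was also present among starts with 100 to fewer than 500 testis reads, at 26.98% (24.5% to 29.6%) and 33.4% (32.1% to 34.8%), and at 10 to 99 reads, at 25.9% (24.4% to 27.4%) and 32.6% (30.4% to 34.9%). At 500 to fewer than 2000 reads (31.7% and 32.8%) and at 2000 or more (29.3% and 33.9%) the intervals overlapped. Sense gene matches were found for 17.2% (16.1% to 18.2%) of short-led and 13.2% (12.6% to 13.9%) of other starts. The difference was present at 10 to 99 reads, at 18.9% (17.6% to 20.3%) and 15.2% (13.6% to 17.05%). Mean testis reads differed within that step, at 44.04 and 68.3. At 100 to fewer than 500 reads the values were 13.6% and 13.9%, with overlapping intervals. The intervals also overlapped at 500 to fewer than 2000 reads (12.5% and 11.6%) and at 2000 or more (12% and 11.1%). The share with a partner at 10 bases, 4.30% and 5.29% of the starts that matched a transcript, had overlapping intervals as well.

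In sperm 10364 members (39.2%, interval 38.6% to 39.8%) were listed, with 88220 reads. Their summed level was 64437 RPM in testis and 5622 in sperm, a sperm-to-testis ratio of 0.0873 (conditional exact binomial interval 0.0867 to 0.0878). Without the members that share 14 bases with a tRNA it was 0.0855, and without those listed in uterus 0.0839. The longer set had a ratio of 0.0966 (0.0964 to 0.0968). Both sets were chosen by testis COUNT, which in part sets a lower level in sperm. Per 1000000 T-start reads of 25 to 31 nt in place of all reads, the members' ratio was 0.291.

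A member was called lower in sperm when its level was at least 4-fold below testis with the sperm COUNT taken as no less than 3, which needs a testis COUNT of 19 or more. That held for 13265 members (50.1%), against 53.5% of all 165640 testis sequences of 25 to 31 nt with a COUNT of 10 or more. Among the members with enough reads for the call, 90.3% were called, and 89.96% of the longer sequences. A level at least 4-fold higher in sperm was found for 83 members, where 0.539% of all sequences were called and 0.314% of the members. These 83 had a median testis COUNT of 15, 3 shared 14 bases with a tRNA and 11 were listed in uterus. The fall toward sperm was thus about as common among the members as among the background. Members and background were both chosen by testis COUNT, so the fall itself is no finding.

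The share of members listed in sperm grew with the testis COUNT, from 28.8% (28.01% to 29.6%) at 10 to 19 reads through 40.2% at 20 to 49 to 66.3% (64.4% to 68.1%) at 100 to fewer than 500 and 85.1% (81.2% to 88.4%) at 500 or more. The longer set followed the same steps, with 27.5%, 38.4%, 64.1% and 84.3%. The ratio of summed levels went the other way, from 0.144 at 10 to 19 reads to 0.0555 at 500 or more in the members, and from 0.180 to 0.0674 in the longer set. These steps are set by the testis COUNT, which is also the denominator of the ratio and part of the rule, so that the fall of the ratio is no finding. Of the 2883 members with a testis COUNT of 100 or more, 898 (31.1%) had no sperm read, the median ratio was 0.0144, and 30 (1.04%) were at or above their testis level. The 20073 longer sequences with such a COUNT were close to that. Of them 31.4% had no sperm read, the median ratio was 0.0129, and 1.52% were at or above their testis level.

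**Figure D4:**
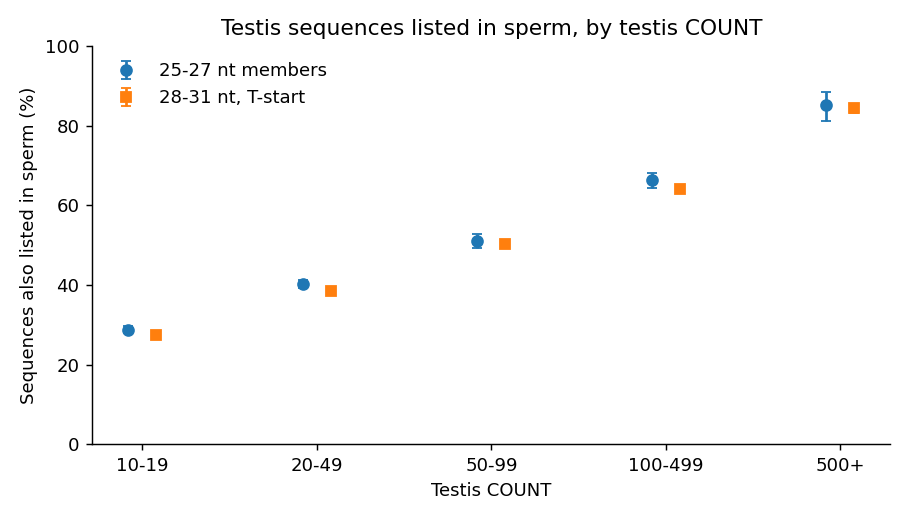
Share of testis sequences also listed in sperm (y axis, percent, bars are exact 95% intervals for counting error) by testis COUNT (x axis) for the members (circles) and the longer T-start set (squares). The members rise from 28.8% to 85.1%, close to the longer set at each step.

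The members with the highest sperm COUNT are shown, since not all of them had a lower level in sperm than in testis. Capitals mark bases 1 and 10.

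Sperm member 1: TaagaaaagTagtaggcagcaaagggc
Sperm member 2: TggatgtgaGatagataggagaagga
Sperm member 3: TgcagcaggGctgggactaggatgg

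Sperm member 1 had a COUNT of 591 in testis (24.8 RPM) and 1011 in sperm (64.4 RPM), a ratio of 2.59 (2.34 to 2.87). The COUNT of sperm member 2 was 2932 in testis and 1004 in sperm, with a ratio of 0.519 (0.483 to 0.558), beside 102425 testis and 22536 sperm reads of its longer forms. That of sperm member 3 was 255 in testis and 735 in sperm, with a ratio of 4.37 (3.78 to 5.06). The fourth by sperm COUNT, with 269 testis and 610 sperm reads, shares 14 bases with a tRNA, and the fifth, with 880 and 608 reads, is sperm member 2 without its last base. None of the first 3 was listed in uterus.

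The lengths found at the members' starts were nearly alike in both libraries. Of the sperm reads of the 14926 starts, 32.4% were of 30 nt and 23.1% of 29 nt, as were 32.4% and 23.2% of the testis reads. Lengths of 25 to 27 nt held 13.6% of the sperm reads and 12.4% of the testis reads. At the short-led starts, which were chosen on the testis lengths, the short share was 61.4% in testis and 34.1% in sperm; at the other starts it was 8.40% and 10.9%.

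**Figure D5:**
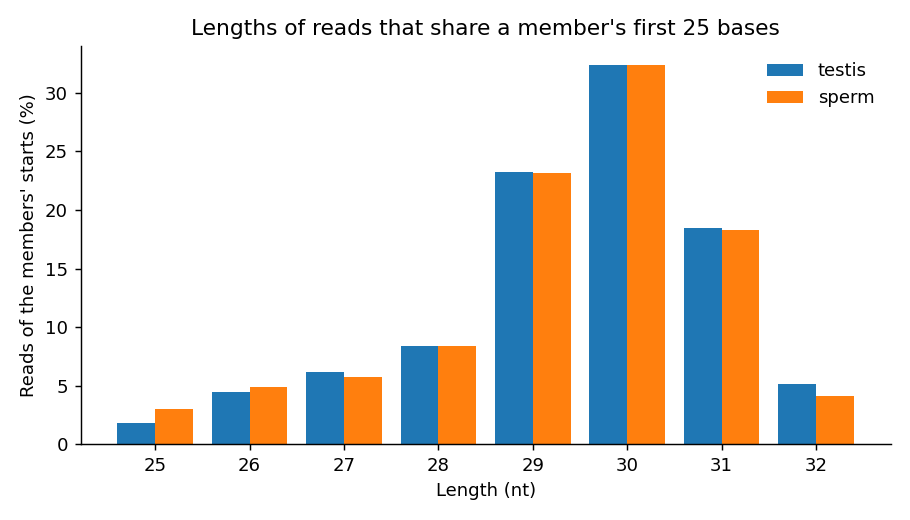
Reads that share the first 25 bases of a member, by length (x axis, nt), as a percentage of all such reads of 25 to 32 nt (y axis) in testis and in sperm, without the starts near a tRNA. Both libraries peak at 30 nt with 32.4%.

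With any length counted, 11858 of the 14926 starts (79.4%) were found in sperm. Among starts with 10 to 99 testis reads, 56.6% (54.9% to 58.3%) of the short-led and 69.1% (66.8% to 71.3%) of the others were found. At 100 to fewer than 500 reads the shares were 85.9% (83.7% to 87.8%) and 84.1% (83.0% to 85.1%), and at 2000 or more 98.7% and 97.7%. Reads were not matched within a step: in the lowest, the short-led starts had a mean of 44.04 testis reads and the others 68.3, and in the next 206 and 246. The sperm-to-testis ratio was 0.200 for the short-led and 0.223 for the other starts at 10 to 99 reads, and 0.147 and 0.150 at 100 to fewer than 500. At 500 to fewer than 2000 reads it was 0.142 and 0.0971, and at 2000 or more 0.0881 and 0.0662. The order of the groups thus differed between the lower and the upper steps.

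In uterus 104 members (0.393%, interval 0.321% to 0.476%) were listed, and the longer set was listed in 0.0813% (0.0661% to 0.0990%). A level at least 4-fold lower than in testis, again with a COUNT taken as no less than 3, was found for 15404 members (58.2%) against 62.0% of all sequences of 25 to 31 nt. Of the 15446 members with enough testis reads for that call, 99.7% received it. A level at least 4-fold higher was found for 68 members (0.257%), against 0.330% of all and 0.0304% of the longer set. Uterus thus lacked nearly all members, with a small group that ran the other way.

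The 104 members had 30868 reads in uterus and 4884 in testis, and 59 of them with 100 or more uterus reads held 29593. Their median testis COUNT was 18, close to the threshold, 79 were also in sperm, and 13 matched a transcript in sense. They are shown by the leaders, with bases 1 and 10 in capitals.

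Uterus member 1: TggaacaatGtaggtaagggaagtcg
Uterus member 2: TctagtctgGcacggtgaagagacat
Uterus member 3: TggaacaatGtaggtaagggaagtc

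Uterus member 1 had a COUNT of 18 in testis, 30 in sperm and 1369 in uterus, and uterus member 3, the same without its last base, had 19, 36 and 1227. Uterus member 2 had 35 in testis, 0 in sperm and 1258 in uterus. The next by uterus COUNT, with 1164 and 1122 reads, are uterus members 2 and 1 shifted in start. None of these 5 matched an annotated transcript or a tRNA, microRNA or rRNA of the filter. The 28S rRNA was not represented in full in the filter, and whether these sequences belong to it was not tested. Without the 104, A at base 10 was 30.9%, the sense match 12.9% and the share listed in sperm 39.0%.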

How the data were processed

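The deposited tables give distinct read sequences of 18 to 44 nt with whole-number read counts, which the authors did not scale to depth, judging by their totals. Per the submitters' processing notes the build was mm9; trimming and tools are not stated there. In 2 tables, 1 line without a sequence was left out. Coordinates come from exact matches to GENCODE M21 transcripts (GRCm38) and were not converted. The filter held 51 nuclear tRNAs, written from general knowledge since no reference for them was at hand. A median of 84.5% of their stretches of 20 bases occurred in the reads, and the lowest share was 33.9%. The alternative without any tRNA match is given. The filter also held 22 mitochondrial tRNAs, 364 rRNA transcripts and 1679 mature microRNAs compared over 18 bases. Simulated sequences, 200 of each kind, were drawn from the filter's own tRNAs and rRNAs and from the searched transcripts. They check the matching steps and cannot show how complete the filter is. The filter left out 100% of tRNA and rRNA pieces with up to 1 change and 0% of random sequences. In sense, 100% of transcript pieces were found.

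Levels are reads per 1000000 of the library. Intervals for shares are exact Clopper-Pearson (scipy 1.17.1) and for ratios conditional exact binomial, at 95%; a count of 0 allows 3 reads. No test was made with 1 library per group. The members were chosen by testis length, first base and count, and these, the gene lists and the alternatives were chosen with earlier results of these data known. Named were the 10 members with the highest testis count, the 5 highest in sperm and in uterus, the 3 highest of each length, and the 10 genes and 5 coding genes with most member reads, beside 6 listed genes (Gm21269, Gm10619, Gm49794, 1700006A11Rik, Asb1, Cbl). Alternatives were another minimum count, other lengths, weighting by count, and looser or stricter matches.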

Additional observations from a re-analysis of the deposited data

How the results depend on the processing

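Of 111 alternative values, 62 stayed within the counting interval of the reported value (for the number of members and their reads, within 1.5 times) and 49 moved outside it; 5 settings, which change which sequences count, were chosen after seeing the data. With a COUNT minimum of 5 there were 48834 members, with A at base 10 in 30.1%, a sense match in 13.8%, a longer form for 94.9% (8.04 times the members' reads, against 7.59), 29.99% listed in sperm and a sperm-to-testis ratio of 0.0927. With a minimum of 50 there were 5837, with 32.1%, 11.9% in sense, 1.75% in antisense only, 99.7% with longer forms (6.89 times), 6.02% with a 10-base partner, 59.9% in sperm, 0.223% in uterus and a ratio of 0.0709. With 26 and 27 nt only, A at base 10 was 31.6%, longer forms 97.8% (8.70 times) and the ratio 0.0822. Weighted by COUNT, the sense match was 11.01%, antisense only 1.67%, longer forms 99.3%, the 10-base partner 7.22%, sperm 62.9% and uterus 0.319%; the read ratios are already weighted so. With 1 member per start, 14991 members with 1014064 reads had 14.3% in sense, 2.59% in antisense only, 98.3% with longer forms (11.3 times), 38.1% in sperm and a ratio of 0.0752. Leaving out only exact known RNA gave 6.86 times and a ratio of 0.0935, and leaving out no tRNA match 6.96 times and 0.0959. The ratio was 0.0855 without members near a tRNA, 0.0839 without those listed in uterus and 0.291 per T-start reads. The 10-base partner was 3.41% among members matched at 1 place. The sense match was 14.5% with 1 substitution. Longer forms of 28 to 31 nt gave 7.15 times, and longer forms with a COUNT of 10 or more existed for 78.8%. In sperm 19.8% had a COUNT of 3 or more and 84.5% shared the first 25 bases with a sperm read; in uterus 0.695% shared the first 20. The share in sperm thus depends on depth and on what counts as listed. No paired analysis was possible because each group has 1 library and no test was made.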
